A study of Mus musculus with 20 samples.

Results

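The genes described here were 9 neuropeptide precursor genes of sensory neurons, Tac1, Calca, Calcb, Gal, Npy, Vip, Adcyap1, Sst and Nppb, together with Vgf, a secreted granule protein. Every probe whose gene name in the array annotation was one of these 10 was taken, which gave 11 probes of the 39429 on the array and 10 genes of the 30222 gene names. Calca had 2 probes, and the Sst probe was printed 10 times on each array. All 10 genes are accounted for below.

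Neuropeptides are cut from larger precursors inside dense core granules and are released when a neuron fires, mostly during bursts. In the dorsal root ganglion (DRG) substance P from Tac1 and calcitonin gene-related peptide (CGRP) from Calca and Calcb mark the peptidergic nociceptors, whereas galanin, neuropeptide Y, VIP and PACAP (from Adcyap1) are best known for rising after nerve injury. Sst and Nppb mark neurons of itch, and Vgf is stored in the same granules and cut into peptides of its own.

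The question was whether the timing of action potential bursts, at an equal number of impulses, changed transcript abundance. Cultures came from NIH Swiss mouse embryos at E13.5; the labels name the cells DRG neurons, while the growth protocol speaks of spinal cords. They were grown in chambers that separate cell bodies from axons, with fluorodeoxyuridine against dividing non-neuronal cells, and the medium of every condition, control included, was changed to one without serum on the eve of the experiment. The 5 conditions were unstimulated, 18/1 (bursts of 18 impulses every 1 min) for 2 hr or 5 hr, and 90/5 (bursts of 90 impulses every 5 min) for 2 hr or 5 hr, with pulses of 6 V and 0.2 ms. Each condition had 4 samples on 2 two-colour arrays, and both colours of an array, Cy3 and Cy5, held samples of the same condition. The methods call the RNAs that shared an array biological replicas and describe each condition as a pool of cultures, without saying how the pool was divided, so p-values measure the spread between these samples, part of which may be technical.

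The slides differed in ways that touched these genes. Slide 1 held the unstimulated and 18/1 2 hr arrays, slide 2 the 18/1 5 hr and 90/5 2 hr arrays, and slide 3 the 90/5 5 hr arrays. Slide and condition cannot be told apart, except for 18/1 2 hr against unstimulated and 90/5 2 hr against 18/1 5 hr, whose arrays shared a slide. Signals on slides 1 and 2 stopped at a recording limit of 65526 or 65527 units, whereas slide 3 recorded up to 506707 units. Spots marked saturated numbered 0 to 486 per sample on slide 1, 840 to 2800 on slide 2 and 0 on slide 3. Spots marked non-uniform numbered 5319 to 14642 in the 4 samples of 18/1 5 hr, against 6 to 85 per sample on slides 1 and 3. For 90/5 2 hr they numbered 45 and 139 on array 7 but 3138 and 6476 on array 8. Of 8 fibroblast markers, 5 passed the spot filter described below. In the sum of their signals, these 5 reached log2 16.51 to 16.75 at 18/1 5 hr, above the 14.61 to 16.05 of the unstimulated samples. Of the sensory neuron markers, 13 of 14 were well above background in all 20 samples, and of the spinal cord neuron markers 1 of 9, Slc17a6, was, while Slc32a1 was in 17 samples, Slc18a3 in 16 and the other 6 in 1 to 7. Of 12 Schwann and satellite cell markers, 9 were well above background in all samples and Erbb3 in 0, and all 5 macrophage markers on the array were well above background in all samples. In whole cultures, fewer cells of a type and less RNA per cell cannot be told apart.

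The Calca probes are shown because they tell its splice products apart, and the Tac1 and Adcyap1 probes because the test called these genes. The first 30 of 60 bases are given, 5′ to 3′ as in the array annotation, without capitals since no part of them is singled out. In mm9 coordinates the first Calca probe, for the variant that encodes CGRP, lies at chr7:121775204-121775263 on the minus strand, and the second, for the variant that encodes calcitonin, at chr7:121776948-121777007. The Tac1 probe lies at chr6:7512893-7512952 and the Adcyap1 probe at chr17:93604401-93604460, both on the plus strand.
Calca, CGRP variant: tattgtgcatcgtgttgtatgtgactctgt
Calca, calcitonin variant: aagaatggtatctgaaatccccagtgggtg
Tac1: gtttcaatgtaattctctggtcttcagtca
Adcyap1: gttccactgcctgacagatcaggtgctggt

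Promoter windows of 8 of the 10 genes were searched for the cyclic AMP response element (CRE), the DNA element bound by CREB, a factor that is activated by neuronal firing. The windows, from RefSeq in build GRCm38.p6, ran from 250 bases before to 50 bases after the start site. The full CRE, TGACGTCA, was looked for and so was its part TGACG on either strand, which also lies within the full CRE. Sst held the full CRE, at -48 from the start site, whereas 1.79% of all 32851 windows held it. TGACG without the full CRE was found in Tac1, Calca, Gal, Vip and Adcyap1, and 20.8% of all windows held TGACG. Npy and Nppb held neither in these windows. Calcb and Vgf were not matched. The stretches below carry the motif in capitals with 10 bases on each side, on the strand of the gene, and they describe sequence, not binding. They lie at chr16:23890875-23890902 (minus strand) for Sst, chr17:93198916-93198940 (plus) for Adcyap1, chr10:5639129-5639153 (plus) for Vip, chr7:114636408-114636432 (minus) for Calca, and chr6:7555008-7555032 (plus) for Tac1, where TGACG is on the opposite strand and reads CGTCA.
Sst: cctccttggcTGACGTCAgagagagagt
Adcyap1: actaggatgcTGACGtcttttactg
Vip: atcactactgTGACGtctttcgggg
Calca: agcacagaggTGACGcaatctgtct
Tac1: tctacaggctCGTCAcgcctgagat

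Tac1, Calca, Calcb, Gal, Adcyap1 and Vgf passed the spot filter in all 20 samples, which asked for a signal of at least 2 times the local background and no mark of non-uniformity. These 6 genes were tested. Among them 1 call was made against the unstimulated samples and 1 between the stimulus patterns: Tac1 was higher after 18/1 for 5 hr, and Adcyap1 was higher after 90/5 than after 18/1 at 5 hr. The Tac1 call rests on 4 saturated spots at 18/1 5 hr and on the scaling, since with each sample centred on its median the difference was -0.10 (adjusted p = 0.862), whereas that of Adcyap1 was 1.66 (adjusted p = 0.00266). Neither count stood out from the array as a whole. At an adjusted p of 0.05, 44.4% of all genes tested were called at 18/1 5 hr against unstimulated and 1 of the 6 members was, and 45.4% were called for 90/5 5 hr against 18/1 5 hr, where again 1 of the 6 was. No member was called, also without adjustment at 0.05, at 18/1 2 hr against unstimulated, where 0.0193% of genes were called by the same limma test, nor at 90/5 2 hr, where 6.97% were. At 90/5 5 hr against unstimulated 0.0676% of genes were called and 0 of the 6 members, of which 1 had an unadjusted p under 0.05.

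**Figure D1:**
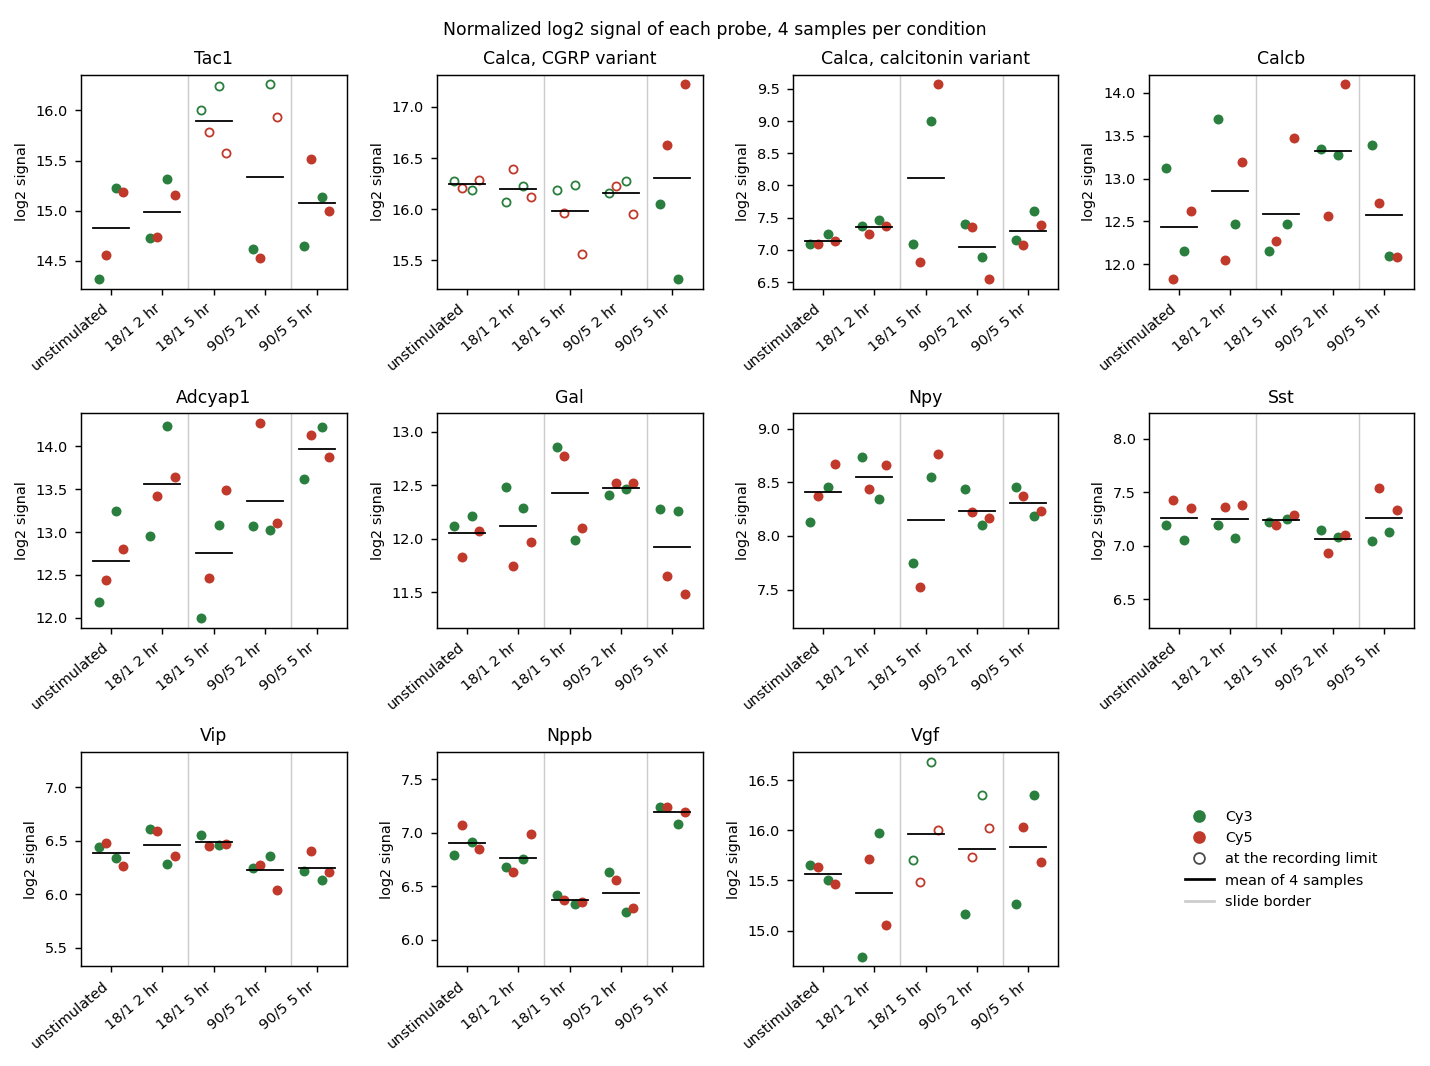
Normalized log2 signal (y axis) of the 11 probes in the 5 conditions (x axis), 4 samples each, with Cy3 samples in green, Cy5 samples in red, open circles for spots at the recording limit and a bar for the mean of 4 samples. On this scaling the Tac1 mean is highest at 18/1 5 hr, where all 4 spots were at the limit (with median centring the difference from unstimulated was -0.10), and Adcyap1 lies between 13.62 and 14.23 at 90/5 5 hr against 12.18 to 13.25 without stimulation.

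Adcyap1 encodes PACAP, a peptide that raises cyclic AMP in its target cells. Its log2 signal was 12.18, 12.44, 13.25 and 12.80 in the 4 unstimulated samples and 12.95, 13.42, 14.24 and 13.64 in the 4 samples of 18/1 2 hr. The stimulated group was higher on average, and its lowest sample lay below the highest unstimulated one. At 18/1 5 hr the signals were 12.00 and 12.46 on array 5 and 13.08 and 13.49 on array 6, back within the range of the unstimulated samples except for the lowest and the highest. At 90/5 2 hr they were 13.07 and 14.27 on array 7 and 13.02 and 13.11 on array 8, so that 3 samples lay close together and 1 stood above them. At 90/5 5 hr they were 13.62, 14.13, 14.23 and 13.88, all above every unstimulated sample and every sample of 18/1 5 hr, and 46.4% of all genes separated the 90/5 5 hr and 18/1 5 hr groups, in either direction.

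The difference between the patterns at 5 hr was 1.21 on the log2 scale (SE 0.44, 95% interval 0.35 to 2.06), or 2.31-fold, with means of 13.96 ± 0.27 (SD, n = 4) for 90/5 and 12.76 ± 0.66 (n = 4) for 18/1. This difference passed limma's moderated test after Benjamini-Hochberg adjustment over all genes (adjusted p = 0.029). None of the Adcyap1 spots was saturated or marked non-uniform. The median of all genes in this comparison was 0.23, and with each sample centred on its median in place of loess and quantile scaling Adcyap1 was higher by 1.66 beside 0.93 for all genes. The call was lost, with adjusted p between 0.0502 and 0.232, without the Cy3 sample of array 5, without replicate 2 or 3 of 90/5 5 hr, or without array 5, 9 or 10, and without array 5 the difference was 0.68. Some cell type markers were also called in this comparison, which called 45.4% of all genes in either direction. Of the fibroblast markers 3 of 5 tested were lower at 90/5 5 hr, with a median log2 difference of -1.17. Of the sensory neuron markers 1 of 11 was higher (median 0.40), of the Schwann and satellite cell markers 1 of 5 (median 0.43), and the 1 spinal cord neuron marker tested was higher by 1.72. That marker read log2 6.77 to 7.17 at 18/1 5 hr, near the dim spots of slide 2, so this size is uncertain. The part of the cell type markers in the result was not tested.

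Against the unstimulated samples Adcyap1 was higher by 1.30 (SE 0.44) at 90/5 5 hr, with groups that did not overlap, as in 11.6% of all genes, and an unadjusted p of 0.00728, but the adjusted p was 0.938. Across alternative settings that adjusted p ranged from 0.00141 to 1, and the gene was called when slide 2 was left out of the fit (adjusted p = 0.0355). The differences at the other conditions were 0.89 (SE 0.44) at 18/1 2 hr, 0.09 (SE 0.44) at 18/1 5 hr and 0.70 (SE 0.44) at 90/5 2 hr, none of which passed the test. The 18/1 2 hr comparison was made within slide 1, and its adjusted p was 1. Between samples of the same replicate number Adcyap1 was higher at 18/1 2 hr by 0.77, 0.98, 0.99 and 0.84, in 4 of 4 pairs, and with the replicate number as a block the adjusted p was 0.0685, which also misses the threshold. For this and later counts of pairs, the 4 pairs came from 2 arrays per condition. The share of all genes with 4 of 4 pairs in 1 direction is not given. The change with time differed between patterns by 1.4 (SE 0.62), an interaction that did not pass after adjustment in limma (adjusted p = 0.0703). Of all genes 44.8% passed that test, and 0 of the 6 members did, of which 2, Adcyap1 and Gal, had an unadjusted p under 0.05.

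Tac1 encodes substance P and neurokinin A. Its log2 signal was 14.32, 14.56, 15.23 and 15.19 in the unstimulated samples and 14.73, 14.74, 15.32 and 15.16 at 18/1 2 hr. At 18/1 5 hr it was 16.00 and 15.78 on array 5 and 16.24 and 15.57 on array 6, all above both of those groups, and all 4 spots were saturated. At 90/5 2 hr the arrays disagreed, with 14.62 and 14.53 on array 7 and 16.26 and 15.93 on array 8, where both spots were saturated. At 90/5 5 hr the signals were 14.65, 15.52, 15.14 and 15.00, within or slightly above the range of the unstimulated samples.

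On the scaling used here Tac1 was at least 2.11-fold higher at 18/1 5 hr than without stimulation, a log2 difference of 1.07 (SE 0.40, 95% interval 0.29 to 1.86) with an adjusted p of 0.0339 in limma's test. The bound takes each saturated spot at its normalized value and holds for that scaling only. It covers the clipping of these spots and not the spread between samples, which the interval gives. The groups did not overlap, as in 53.7% of all genes in this comparison, whose median was -0.23. With median centring the log2 difference of Tac1 was -0.10 and the median of all genes was -0.81, so that the sign of the estimate depended on the scaling. On that scaling too the saturated spots of 18/1 5 hr make -0.10 a lower limit, so the sign there is not settled. The call was lost, with adjusted p between 0.0516 and 0.329, without unstimulated replicate 1, the Cy3 sample of array 5 or of array 6, replicate 4 of 90/5 5 hr, or array 1, 3, 4, 5, 6 or 10, and without array 1 the difference was 0.69. The call was also lost with quantile normalization, with the filter in 1 condition, with no spot filter and with means of arrays. The fibroblast markers and the number of non-uniform spots were also higher at 18/1 5 hr, as given above. Of the sensory neuron markers tested, 1 of 11 was called lower there (median -0.39), and of the Schwann and satellite cell markers 1 of 5 (median -0.39). Of all genes, 44.4% were called in this comparison, in either direction. The 1 spinal cord neuron marker tested was called lower, at -1.12. It read log2 6.77 to 7.17 at 18/1 5 hr, near the dim spots of slide 2, so this size is uncertain. The part of the markers and of the non-uniform spots in the result was not tested.

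The saturated spots of 18/1 5 hr were taken at their values, so on this scaling clipping may have understated the sizes that follow. The log2 difference of Tac1 was 0.91 (SE 0.40, adjusted p = 0.069) for 18/1 5 hr against 18/1 2 hr and -0.82 (SE 0.40, adjusted p = 0.0997) for 90/5 5 hr against 18/1 5 hr. Neither passed the test. With median centring both estimates turned, to -0.37 and 0.52, but the saturated spots leave the signs unsettled there. Its differences from unstimulated samples were 0.16 (SE 0.40) at 18/1 2 hr, 0.51 (SE 0.40) at 90/5 2 hr and 0.25 (SE 0.40) at 90/5 5 hr, also short of the test. Without array 7 the difference at 90/5 2 hr was 1.27 (adjusted p = 0.0177) and rested on array 8, with both spots at the limit.

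**Figure D2:**
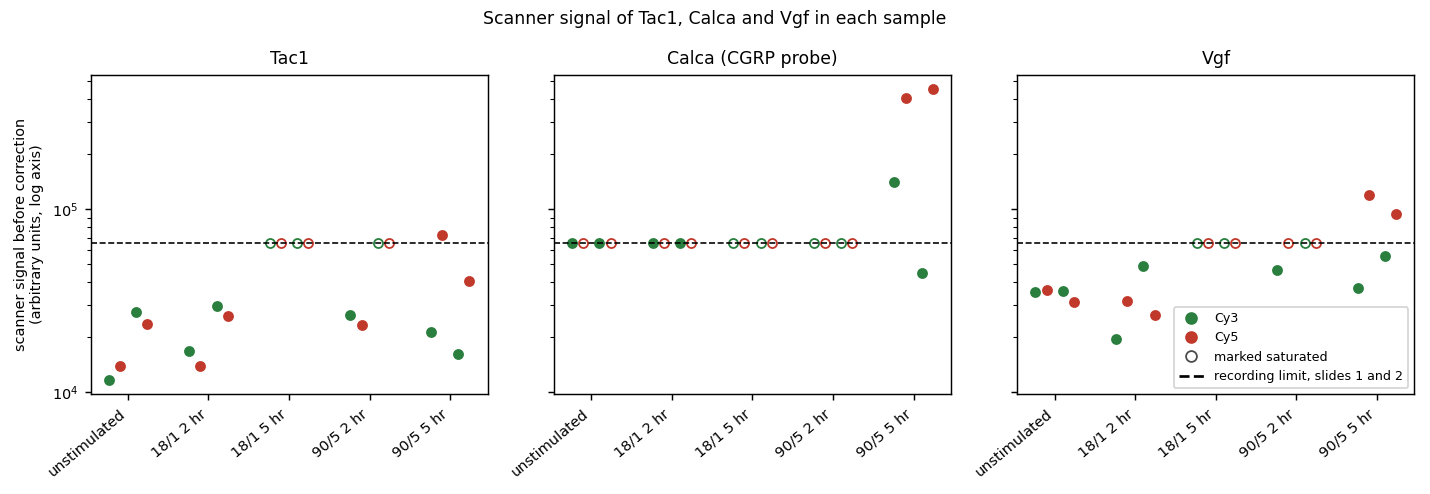
Scanner signal before any correction (y axis, arbitrary units, log scale) of the probes for Tac1, Calca (CGRP variant) and Vgf in the 5 conditions (x axis), 4 samples each, with open circles for spots marked saturated and a dashed line at the recording limit of slides 1 and 2. All 16 Calca spots of slides 1 and 2 lie at the line, and on slide 3 they range from 44949 to 454076 units.

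The CGRP probe of Calca was within 1% of the recording limit in all 16 samples of slides 1 and 2. Of these, 12 were marked saturated, and the other 4, the Cy3 samples of slide 1, read 65422 to 65526 units without the mark. Slide 3, with its wider range, read 140567 and 44949 units in Cy3 and 406520 and 454076 units in Cy5 at 90/5 5 hr. The normalized log2 signals there, 16.05, 16.63, 15.32 and 17.22, spread over 1.90, against 0.11 among the unstimulated samples, whose spots were all at the limit. The fitted differences from unstimulated samples lay between -0.26 and 0.06 with SE 0.45 and no calls. With median centring that at 18/1 5 hr was -1.95 and called (adjusted p = 0.00226), beside -0.81 over all genes. Both sides were at the limit in the first 3 of these comparisons, and the unstimulated side was in that of 90/5 5 hr, so they do not measure how far Calca moved, and no fold change is given.

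The calcitonin probe of Calca was dim. Its log2 signal lay between 7.09 and 7.25 without stimulation and between 7.25 and 7.46 at 18/1 2 hr, where its spots read 1.70 to 2.51 times the local background. By replicate number it was higher at 18/1 2 hr in every pair, by 0.28, 0.16, 0.21 and 0.23, at signals near background. All 4 spots of 18/1 5 hr were marked non-uniform, with 7.09 and 6.82 on array 5 but 9.0 and 9.57 on array 6. It was 6.55 to 7.40 at 90/5 2 hr and 7.07 to 7.60 at 90/5 5 hr. All 4 samples passed the filter at 90/5 2 hr and at 90/5 5 hr, but not in the other conditions. In the main fit and in the looser fit used for Npy and Sst below, the probe of the highest mean stood for each gene. For Calca this was the CGRP probe, so the values of the calcitonin probe are given without a test.

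Calcb encodes the second form of CGRP and lies close to Calca on chromosome 7. None of its spots was saturated, so that it can be read where Calca cannot. The unstimulated signals were 13.12, 11.83, 12.15 and 12.62, and those of 18/1 2 hr were 13.70, 12.05, 12.47 and 13.19. Samples of the same replicate number were higher at 18/1 2 hr by 0.58, 0.22, 0.32 and 0.57, in 4 of 4 pairs, and the difference did not pass the test without the replicate number as a block (0.42, adjusted p = 1) or with it (adjusted p = 0.48). The signals were 12.16, 12.27, 12.47 and 13.47 at 18/1 5 hr, 13.35, 12.56, 13.27 and 14.10 at 90/5 2 hr, and 13.39, 12.71, 12.10 and 12.08 at 90/5 5 hr. All 5 groups overlapped. The difference from unstimulated samples was largest at 90/5 2 hr, at 0.89 (SE 0.61, 95% interval -0.30 to 2.08, adjusted p = 0.408), and the intervals leave room for changes of either sign or of several-fold.

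Gal encodes galanin, an inhibitory peptide of injured sensory neurons. Its signals were 12.12, 11.83, 12.21 and 12.07 without stimulation and 12.48, 11.74, 12.29 and 11.97 at 18/1 2 hr. For 18/1 5 hr array 5 gave 12.86 and 12.77 and array 6 gave 11.99 and 12.10, so the arrays of this condition stood apart. At 90/5 2 hr the signals were 12.41, 12.52, 12.46 and 12.52, all above the unstimulated samples (26.3% of all genes separated these groups, in either direction), and at 90/5 5 hr they were 12.28, 11.65, 12.26 and 11.48. The differences from unstimulated samples were 0.06, 0.38, 0.42 and -0.14 in the order of conditions above (SE 0.29 each), and none passed the test. Gal had the tightest intervals of the 6 genes, and that of 90/5 2 hr ran from -0.16 to 1.00. The change with time differed between 90/5 and 18/1 by -0.87 (SE 0.42), an interaction that did not pass (adjusted p = 0.0933). Without array 6 Gal was higher at 18/1 5 hr than without stimulation by 0.76 (adjusted p = 0.021), which rested on array 5, and by the same omission it was lower at 90/5 5 hr than at 18/1 5 hr by -0.90 (adjusted p = 0.00787).

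Vgf encodes a granule protein that is itself cut into peptides. Its signals were 15.65, 15.63, 15.50 and 15.46 without stimulation, the closest set of Vgf values in any condition, and 14.74, 15.71, 15.97 and 15.06 at 18/1 2 hr. At 18/1 5 hr they were 15.70, 15.48, 16.68 and 16.00 with all 4 spots saturated, and at 90/5 2 hr 15.17, 15.73, 16.35 and 16.02 with 3 of 4 saturated. At 90/5 5 hr, on the slide without saturation, they were 15.26, 16.03, 16.35 and 15.68. All groups overlapped. The differences from unstimulated samples were -0.19 at 18/1 2 hr and 0.27 at 90/5 5 hr (SE 0.45 each). With saturated spots taken at their values they were 0.41 (SE 0.45, adjusted p = 0.489) at 18/1 5 hr and 0.26 (SE 0.45) at 90/5 2 hr. None passed the test. With median centring the 18/1 5 hr difference was -1.03 (adjusted p = 0.036), again beside -0.81 for all genes, so that the sign of the estimate depended on the scaling. With all 4 spots of 18/1 5 hr saturated, -1.03 is a lower limit, and the sign on that scaling is not settled.

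On the scaling used here neither CGRP gene nor Gal or Vgf was called in the comparisons between patterns and times. With median centring Vgf was called at 1.65 (adjusted p = 0.00131) for 90/5 5 hr and at 1.16 (adjusted p = 0.0234) for 90/5 2 hr against 18/1 5 hr. Its spots were saturated in all 4 samples of 18/1 5 hr and in 3 of 4 at 90/5 2 hr, so these sizes and signs rest on spots at the limit. In the same setting Calcb was called at 1.59 (adjusted p = 0.0429) for 90/5 2 hr against 18/1 5 hr, and Calca, at the limit on slides 1 and 2, was called in 4 of these 5 comparisons. Adcyap1 was then called for 90/5 2 hr against 18/1 5 hr (1.33, adjusted p = 0.0179) and for 18/1 5 hr against 2 hr (-1.14, adjusted p = 0.034) too. In that setting 57.5% of all genes were called for 90/5 5 hr against 18/1 5 hr, 46.9% for 90/5 2 hr against 18/1 5 hr and 52.9% for 18/1 5 hr against 2 hr. Between the patterns at 2 hr, limma called 4.96% of all genes. Between the times it called 44% of genes for 18/1 and 8.96% for 90/5. For 90/5 2 hr against 18/1 5 hr, both on slide 2, it called 12.9%, but 0 genes with means of arrays or with only the conditions compared. In each of these 4 comparisons 0 of the 6 members were called, and Tac1 for 18/1 5 hr against 2 hr was the only one with an unadjusted p under 0.05. Among the 6, the median log2 difference was 0.27 at 18/1 5 hr and 0.47 at 90/5 2 hr against unstimulated, beside -0.23 and -0.08 over all genes. The median at 18/1 5 hr depended on the scaling, since with median centring it was -0.32, with 0 of the 6 above 0, beside -0.81 over all genes. Calca, Tac1 and Vgf had saturated spots at 18/1 5 hr and at 90/5 2 hr.

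**Figure D3:**
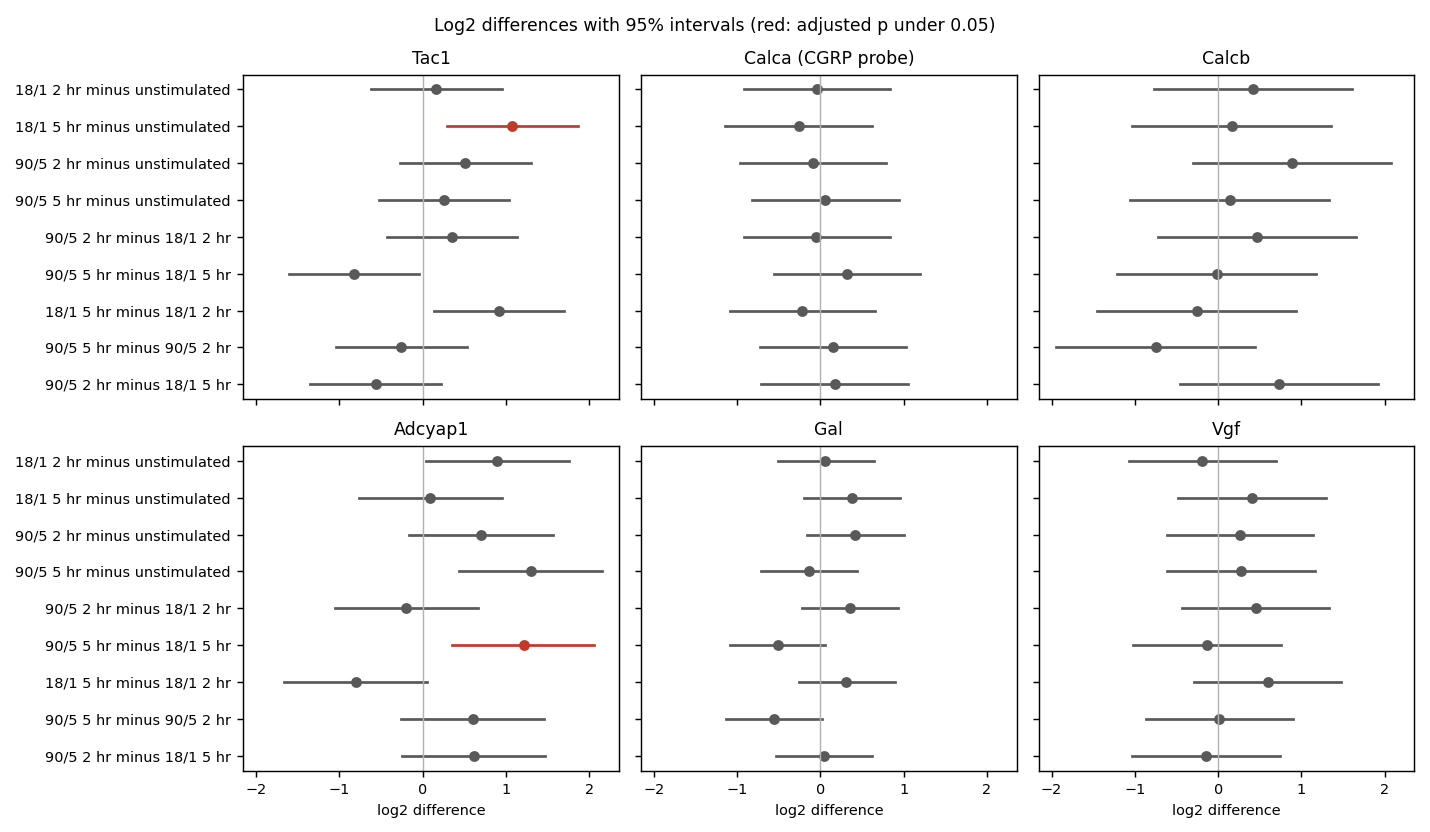
Log2 differences (x axis) of the 6 tested genes in 9 comparisons (y axis), with points for limma estimates, lines for 95% intervals and red for an adjusted p under 0.05. Tac1 at 18/1 5 hr against unstimulated (1.07) and Adcyap1 at 90/5 5 hr against 18/1 5 hr (1.21) are the 2 in red, and the Calca estimates rest on spots at the recording limit.

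Npy, which encodes neuropeptide Y, was well above background in all 20 samples but failed the filter through a non-uniform mark on 1 spot, that of array 6 in Cy5. Its signals were 8.13, 8.37, 8.46 and 8.67 without stimulation, 8.74, 8.44, 8.35 and 8.66 at 18/1 2 hr, and 8.46, 8.37, 8.19 and 8.23 at 90/5 5 hr. At 90/5 2 hr they were 8.44, 8.22, 8.10 and 8.17. For 18/1 5 hr array 5 gave 7.75 and 7.52 and array 6 gave 8.55 and 8.77, which put this group on both sides of the others. In a fit that asked for the filter in 1 condition only, over 18744 genes, its differences from unstimulated samples were 0.14, -0.26, -0.17 and -0.09 (SE 0.29 each) with no call. That fit called 0.0213% of genes for 18/1 after 2 hr and 36.8% after 5 hr. For 90/5 it called 5.06% of genes after 2 hr and 0.149% after 5 hr. Neither Npy nor Sst was among them.

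Sst encodes somatostatin, an inhibitory peptide. Averaged over its 10 spots, the signal was 7.05 to 7.43 without stimulation, 7.07 to 7.38 at 18/1 2 hr, 7.19 to 7.29 at 18/1 5 hr, 6.93 to 7.15 at 90/5 2 hr and 7.04 to 7.54 at 90/5 5 hr. The 10 spots of a sample had SDs of 0.09 to 0.21 on slides 1 and 3 but of 0.53 to 1.02 for 18/1 5 hr, where spots were marked non-uniform in all 4 samples. In the same fit as Npy, on the 6 spots that passed the filter, the differences of Sst from unstimulated samples lay between -0.18 and 0.16 (SE 0.22), and none was called.

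Vip, the precursor of vasoactive intestinal peptide, was well above background in 0 of 20 samples, with log2 signals of 6.04 to 6.61. Nppb, which encodes B-type natriuretic peptide, lay at 6.79 to 7.07 without stimulation and at 6.63 to 6.99 at 18/1 2 hr, with 2 and 1 of 4 samples well above background. On slide 2 none was, with 6.33 to 6.42 at 18/1 5 hr and 6.26 to 6.63 at 90/5 2 hr. At 90/5 5 hr all 4 samples were well above background, at 7.24, 7.24, 7.08 and 7.19, higher than every other sample of Nppb. Of the genes that passed the filter, 11.6% separated 90/5 5 hr from unstimulated and 46.4% from 18/1 5 hr, in either direction. On the scaling used here Nppb was at least 1.43-fold higher at 90/5 5 hr than at 18/1 5 hr. This bound holds for that scaling only and does not cover the spread between samples. Before scaling, the spots overlapped, with 48 to 85 units at 18/1 5 hr and 50 to 136 units at 90/5 5 hr. Nppb failed the filter in each condition. In a fit of all 30222 genes without the filter limma called it for 90/5 5 hr against 18/1 5 hr, as it did 27.2% of all genes, but with 18/1 5 hr at background the size of the difference has only that lower bound. That fit did not call Nppb for 90/5 5 hr against unstimulated. Slide 3 held only 90/5 5 hr.

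The genes whose signals followed each tested member most closely over the 20 samples were Csrnp1 for Adcyap1 (Pearson r = 0.87), with the early growth response gene Egr1 as the third (r = 0.83). They were Gfra4 for Tac1 (r = 0.89), App for Vgf (r = 0.88), Zfp467 for Gal (r = 0.86), a probe without a gene symbol for Calcb (r = 0.89) and Gapdh for Calca (r = 0.97), which was at the recording limit in 16 samples. These correlations are descriptions over samples that share arrays, slides and conditions.

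Of 22 genes for peptide processing and granules, 14 passed the filter, and between unstimulated and 18/1 5 hr 1 of them rose and 3 fell, where of all 10355 genes 1549 were called higher and 3050 lower. Cpd, a carboxypeptidase that trims peptides, fell by 2.01 (SE 0.45, adjusted p = 0.00124), from 9.43 to 10.13 down to 6.75 to 8.72, and was higher again at 90/5 5 hr than at 18/1 5 hr by 2.13 (SE 0.45, adjusted p = 0.000698). Both calls held under all 14 alternative settings and all 30 omissions of a sample or array. They share the 18/1 5 hr samples, and the lowest of these, at 6.75, was near the dim spots of slide 2. Cpe, the carboxypeptidase of neuropeptide granules, fell by 0.74 and Cadps, a factor for granule release, fell by 0.83. These calls held in 8 and 7 of 13 settings and in 12 and 14 of the 30 omissions. With median centring Cpe was at -1.91 and Cadps at -0.78, the latter not called, and 7 of the 20 Cpe spots were saturated. Pcsk2, a prohormone convertase, rose by 1.14 (SE 0.42, adjusted p = 0.0329), a call that held in 24 of the 30 omissions and was lost with median centring (0.47, adjusted p = 0.451). Under a looser filter its brighter probe stood for the gene, and that one gave -1.05 (adjusted p = 0.00412), so that its probes disagreed. Pcsk1, the convertase that usually cuts first, was higher at 90/5 5 hr than at 18/1 5 hr by 0.88 (SE 0.30, adjusted p = 0.023), with 12.28 to 12.63 against 11.50 to 11.68, and this call held in 27 of the 30 omissions. In that comparison 2 of the 14 were higher and 3, Pcsk2, Qpct and Furin, were lower, where of all genes 3065 were higher and 1636 lower. With median centring Pcsk2 was at -0.29, Qpct at -0.22 and Furin at -0.01, none of them called. Against unstimulated, 0 of the 14 were called by limma at 18/1 2 hr and at 90/5 5 hr, with 0 and 1 at an unadjusted p under 0.05, where 0.0193% and 0.0676% of all genes were called, and 2, Cpd and Cadps, were lower at 90/5 2 hr, where 351 of all 10355 genes were called lower and 371 higher. There the call of Cpd (adjusted p = 0.0499) held in 3 of 14 settings and 10 of 30 omissions, and that of Cadps in 7 of 13 settings. Their median at 18/1 5 hr was 0.07 beside -0.23 over all genes.

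Of the 29 receptor names listed for these peptides 28 were on the array, and 7 passed the filter. Crcp, a component of the CGRP receptor that also belongs to RNA polymerase III, fell by 1.28 (SE 0.24, adjusted p = 0.000298) between unstimulated and 18/1 5 hr, from 13.13 to 13.37 down to 11.72 to 12.35. It was higher at 90/5 5 hr than at 18/1 5 hr by 0.99 (SE 0.24, adjusted p = 0.00225). Both calls share the 18/1 5 hr samples, and both held under every setting and omission tried. In the latter comparison 2 of the 7 were higher, Crcp and Npr3 by 0.81 (SE 0.27), and 2 were lower, Sstr5 by -1.36 (SE 0.30) and Npr2, a natriuretic peptide receptor, by -1.08 (SE 0.35), in a comparison that called 45.4% of all genes. With median centring the falls of Sstr5 (-0.61) and Npr2 (-0.87) were not called. Sstr5, a somatostatin receptor, was higher at 18/1 5 hr than in unstimulated samples by 1.05 (SE 0.30, adjusted p = 0.00766), with 5 of its 20 spots saturated, but by 0.51 (adjusted p = 0.214) with median centring. Npr3, the clearance receptor of natriuretic peptides, fell by 0.74 (SE 0.27, adjusted p = 0.0305), a call that held in 9 of 14 settings and 22 of the 30 omissions. Its range at 18/1 5 hr, 6.68 to 7.38, is near that of dim spots on slide 2. The sizes of this fall and of the difference of 0.81 are therefore uncertain. Tacr2, a tachykinin receptor, was lower at 90/5 2 hr by -1.36 (SE 0.38, adjusted p = 0.0325), a call that held in 7 of 14 settings and 19 of the 30 omissions. Over the 7 the median at 18/1 5 hr was -0.10 beside -0.23 over all genes. The PACAP receptor Adcyap1r1 and the main substance P receptor Tacr1 were not among the 7.

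Of 45 names of other peptide precursors, 42 were on the array and 11 passed the filter. Between unstimulated and 18/1 5 hr 2 of the 11 rose and 5 fell, where of all 10355 genes 1549 were called higher and 3050 lower. Nppa, which encodes atrial natriuretic peptide, rose by 3.11 (SE 0.78, adjusted p = 0.00311), from 8.87 to 9.21 up to 10.22 to 14.28. The call held in 12 of 14 settings, and was lost in both forms of the methods' t-test and without array 5. Nmb, the precursor of neuromedin B, rose by 1.61 (SE 0.59, adjusted p = 0.0301) with 3 saturated spots, a call that held in 7 of 13 settings and 23 of the 30 omissions, and with median centring it was not called (1.13, adjusted p = 0.109). Cort, a relative of somatostatin, fell by 2.01 (SE 0.27, adjusted p = 1.13e-05), from 9.05 to 9.33 down to 6.83 to 7.51. The lower range is near that of dim spots on slide 2, so the size of this fall is uncertain. Nucb2, the precursor of nesfatin, fell by 1.74 (SE 0.33, adjusted p = 0.000342). The calls of Cort and Nucb2 held under all 14 settings and 30 omissions. Pomc, the precursor of melanocortins and beta-endorphin, fell by 1.25 (SE 0.40, adjusted p = 0.0148), a call that held in 11 of 14 settings and 27 of 30 omissions. The others that fell were Hcrt and Cartpt. The call of Hcrt was lost with median centring (-0.54, adjusted p = 0.101), and that of Cartpt held in 7 of 14 settings and 17 of 30 omissions. At 90/5 5 hr against 18/1 5 hr, where 45.4% of all genes were called and mostly higher, 5 were higher, Nucb2 by 1.98, Cort by 1.97, Pomc by 1.77, Cartpt by 1.23 and Hcrt by 0.54 (0.34 and not called with median centring), and Nppa was lower by -2.58 (SE 0.78, adjusted p = 0.0106). This call of Nppa held in 10 of 14 settings and was lost without array 5 or 9. The comparisons of 18/1 5 hr with unstimulated and with 90/5 5 hr share the 18/1 5 hr samples. Against unstimulated, 0 of the 11 were called by limma at 18/1 2 hr and at 90/5 5 hr, with 0 and 1 at an unadjusted p under 0.05, while the medians were 0.20 and 0.42 beside 0.00 and -0.01 over all genes.

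**Figure D4:**
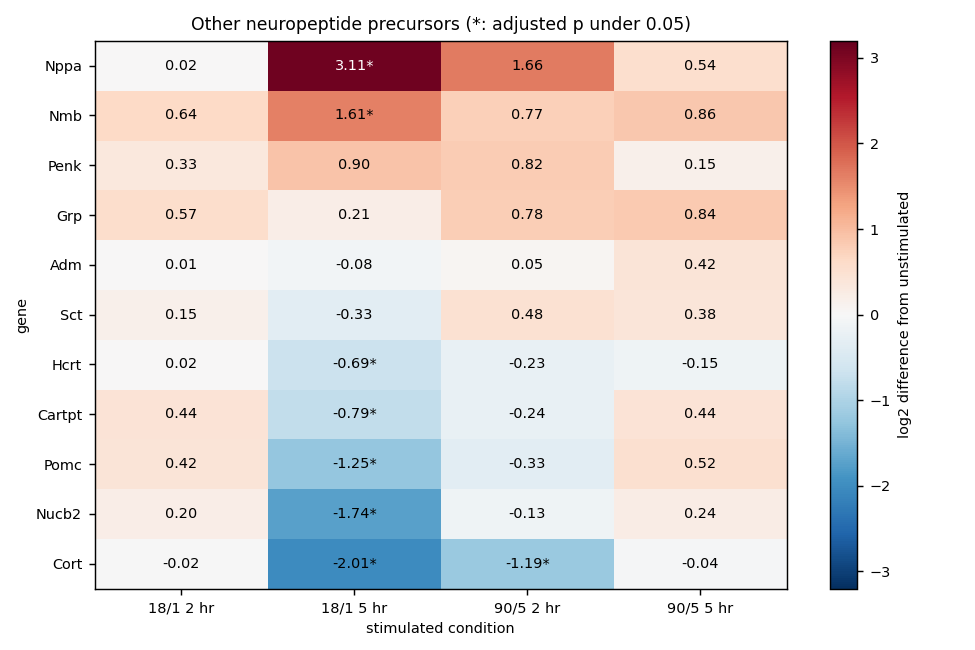
Log2 difference from unstimulated (colour and printed value) of the 11 other neuropeptide precursors that passed the filter (y axis) in the 4 stimulated conditions (x axis), with an asterisk for an adjusted p under 0.05. The calls lie at 18/1 5 hr, from 3.11 for Nppa to -2.01 for Cort, except for Cort at 90/5 2 hr (-1.19).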

How the data were processed

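Total RNA was labelled with Cy3 or Cy5 and hybridised to 44k-format mouse arrays with 60-base probes. The deposited files hold the scanner's spot intensity and local background intensity as the authors extracted them with Agilent Feature Extraction (10.7.1.1 on slide 1 and 10.7.3.1 on slides 2 and 3, per the file headers, whereas the methods name another release). The mean spot intensity, its median local background and the marks for saturation, non-uniformity and background were used, and 36 other columns per colour were not used here. In limma 3.58.1 (R 4.3.3), background was corrected by normexp (offset 50), colours were normalized by loess and arrays by quantiles of their average signal. The filter (2 times background, no non-uniform mark, all 20 samples) left 10355 genes, with 1 probe per gene, that of the highest mean. Groups, a colour term and the array as a random block (correlation 0.529) were fitted over all samples, with Benjamini-Hochberg adjustment within each comparison at 0.05. The fit was tested on simulated data. For the 18/1 5 hr and 90/5 2 hr samples, labels and file columns disagree on the dye of single samples, so these are named by array and colour, and the group holds either way. By a check of deviations, samples of the same number correlated for unstimulated and 18/1 2 hr (r of 0.13 to 0.56 in 4 pairs), and not throughout for the other groups. Samples of different numbers were not compared, and those of the same number share a colour, so the check does not settle the pairing. The members, lists and tests were chosen with earlier results of these data known. All members are named, with up to 3 called rises and falls per list in the comparisons with unstimulated and between patterns at 5 hr (those of the other comparisons are not printed here), and the closest gene to each member; Egr1, Hcrt and Cartpt were added after their values were seen. Precision is limited by the number of arrays.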

Additional observations from a re-analysis of the deposited data

Results flagged for a closer look

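Among the 55 groups of 4 samples, 11 probes in 5 conditions, 2 held a sample far from the other 3 by Dixon's criterion, which chance meets in about 1 of 20 groups. Adcyap1 in the Cy5 sample of array 7 (90/5 2 hr) was 14.27, against 13.02 to 13.11 in the others. Vip in the Cy3 sample of array 5 (18/1 5 hr) was 6.55, against 6.45 to 6.47, with no Vip spot well above background.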

How the results depend on the processing

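With each sample centred on its median, the median of all genes shifted to -0.81 for 18/1 5 hr against unstimulated and to 0.93 for 90/5 5 hr against 18/1 5 hr. In that setting 17 of the members' differences changed sign, against 1 in each form of the methods' t-test. Among them the signs of Tac1 for 18/1 5 hr against unstimulated (-0.10) and against 2 hr (-0.37) turned, with those for 90/5 5 hr (0.52) and 90/5 2 hr (0.58) against 18/1 5 hr, as did those of Vgf, all 3 then called, for 18/1 5 hr against unstimulated (-1.03), 90/5 5 hr against 18/1 5 hr (1.65) and 90/5 2 hr against 18/1 5 hr (1.16). The others, such as Adcyap1 for 18/1 5 hr against unstimulated (-0.33), were called in neither setting. All 4 spots of Tac1 and of Vgf at 18/1 5 hr were saturated, so the signs of both genes are not settled with median centring. The number of member genes called there was 2 for 18/1 5 hr against unstimulated, 3 for 90/5 5 hr against 18/1 5 hr, 2 for 18/1 5 hr against 2 hr, 1 for 90/5 5 hr against 2 hr and 4 for 90/5 2 hr against 18/1 5 hr, where 52.6%, 57.5%, 52.9%, 8.33% and 46.9% of all genes were called. The cause was not tested. The call of Tac1 for 18/1 5 hr, 1 member in all, became 0 with quantile normalization, with the filter in 1 condition, without saturated probes (where Tac1 was left out by construction) and with means of arrays. The call of Adcyap1 between patterns at 5 hr became 0 with the filter in 1 condition, whereas 3 members were called without the array block (59.9% of all genes) and 2 by the methods' t-test without adjustment (45%). For 18/1 5 hr against 2 hr, 1 member was called without background subtraction, with only the conditions compared, and by the methods' t-test with or without adjustment, where 36.4% to 47.6% of all genes were called, and 2 without the array block (59%). For 90/5 5 hr against 2 hr 1 member, Nppb, was called without the spot filter (3.09% of all genes). There Nppb was also called for 18/1 5 hr against unstimulated (25.7% of all genes) and between patterns at 5 hr (27.2%), in place of Tac1 and Adcyap1. On slide 2 none of its samples was well above background, so the fitted sizes are not given. Leaving out samples or arrays gave 0 to 1 member called for 18/1 5 hr (24.8% to 54.7% of all genes) and for 90/5 2 hr (0.84% to 27%) against unstimulated, 0 to 1 for 90/5 2 hr against 18/1 2 hr (0.773% to 24.6% of all genes; Tac1 without array 7) and against 18/1 5 hr (0.55% to 34.4%; Tac1 without array 8), 0 to 2 for 90/5 5 hr against 18/1 5 hr (31.2% to 55.1% of all genes) and 0 to 2 for 18/1 5 hr against 2 hr (24.8% to 54.8%). The added members were Tac1, Gal and Adcyap1. Pcsk2 turned to -1.05 for 18/1 5 hr and to 1.37 for 90/5 5 hr against 18/1 5 hr with the filter in 1 condition, no spot filter and the background rule alone, since another probe then stood for it. Settings for the genes of the lists were added after seeing the data.

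With the replicate number as a block (replicate block), 1 member, Adcyap1 at 1.30 (adjusted p = 0.00141), was called for 90/5 5 hr against unstimulated, and 359 genes (3.47%) in place of 7, although in the check of deviations (r of -0.34 to 0.36) the numbers were not seen to pair those samples. It was also called without slide 2 (1 member, beside 2.48% of all genes) and by the methods' t-test without adjustment (1 member, beside 5.52%). For 18/1 2 hr the block called 7 genes in place of 2 and changed no other member's call. Of 765 values of members under other settings, 734 kept their call, and of 1620 values with a sample or array left out, 1589 did. Slide as a fixed block gave the same values by construction. Saturation, not dim signal, limited Calca, Tac1 and Vgf, and signal near background limited Vip, Nppb, Sst and the calcitonin probe.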
